A study of Schizosaccharomyces pombe with 6 samples.

Results

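The genes at the ends of chromosome II of fission yeast were taken as all identifiers of the count table that carry one of 8 cosmid prefixes (SPBC1348, SPBPB8B6, SPBPB21E7, SPBPB10D8, SPBC359, SPBPB7E8, SPBPB2B2 and SPBCPT2R1), the names of the cloned pieces from which these stretches of the chromosome were first sequenced. The prefixes gave 70 genes, and 4 of them were set aside (*gal7*, *gal10*, *gal1* and *pfl7*), which left 66 of the 7268 genes in the table. All 66 were found in the ASM294v3 annotation, as 58 coding genes and 8 pseudogenes, and 16 of them have introns. In that annotation 41 lie at the left end and 23 at the right end. The other 2, SPBPB7E8.01 and SPBPB7E8.02, do not lie at an end: they are 430 and 429 coding genes or pseudogenes from the right end of the chromosome. They were kept because their prefix selects them, and they are described as the inside pair.

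The stretch of a fission yeast chromosome next to a telomere, the subtelomere, is packed into heterochromatin, in which the methyltransferase Clr4 marks histone H3 and the HP1-type protein Swi6 binds the mark. Genes placed there are usually kept at low levels in growing cells. Subtelomeres of different chromosome ends hold copies of the same sequences, among them the RecQ-type helicase genes *tlh1* and *tlh2*, while the stretches further in hold many genes for transporters and for the use of nitrogen and other nutrients.

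RNA was extracted from cultures of 3 strains grown in YE5S, a rich medium, at 30 °C to an OD600 of 0.5, with 2 cultures per strain described in the methods as biological replicates. The strains were WT (972), a deletion of *saf5*, whose product is needed to make the snRNPs of the spliceosome, and a deletion of *cwf12*, whose product belongs to the Prp19-containing complex of the spliceosome. In the study's strain list the deletions carry a drug resistance cassette and a *leu1* allele that 972 lacks, and *cwf12* was deleted in an h+ strain and *saf5* in an h- strain; which entries of the list were sequenced is not given in the sources used here. The labels do not say whether a strain was represented by more than 1 isolate.

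Library totals ran from 9113139 to 12054198 counts. The WT pair differed most between replicates (chi-square per degree of freedom 21.9 over the genes with counts), followed by the libraries labelled *Δsaf5* (6.08) and *Δcwf12* (1.99). Several of the genes described here, such as *aes1* and *eno102*, had more reads in WT replicate 2 than in WT replicate 1. Reads on *cwf12* fell from 556 and 531 counts in WT to 41 and 32 in *Δcwf12*. Reads on *saf5* were not lost: they came to 323 and 234 counts in WT, 220 and 249 in the libraries labelled *Δsaf5* and 355 and 298 in *Δcwf12* (log2 fold change -0.33 against WT, edgeR quasi-likelihood test, adjusted p = 0.0904). The identity of these libraries, and with it each direction reported for *Δsaf5*, is taken from their labels. Mating-type genes were summed in separate lists, each of which mixes genes of M-type and P-type cells. The first list held 7 genes, *mfm1*, *mfm2*, *mfm3*, *mam1*, *sxa2*, *mat1-Mc* and *map3*, the last a gene of P-type cells. Its summed level lay between 109 and 114 CPM in the WT and *Δcwf12* libraries. In the libraries labelled *Δsaf5* it was 148 and 153 CPM, with *mat1-Mc* at 0 counts in every library. Single genes moved within these sums, in *Δcwf12* *mfm2* down (log2 fold change -3.44, called) and *mfm1* up (1.44, called), with *sxa2* at 31.2 CPM in WT and 56.8 CPM in *Δcwf12* (0.86, not called). In the libraries labelled *Δsaf5* *mfm1* (2.25) and *mfm3* (1.18) were called higher and none was called lower. There *sxa2* was at 62.3 CPM (0.995, not called). The second list held 3 genes, *map1*, *map2* and *mam2*, the last a gene of M-type cells. Its summed level was 16.3 and 10.3 CPM in WT, 26.4 and 27.0 in the libraries labelled *Δsaf5* and 13.3 and 13.0 in *Δcwf12*. In the libraries labelled *Δsaf5* *map1* (1.43) and *mam2* (1.47) were called higher and none of this list was called lower. CPM are counts scaled to library size with TMM factors, and the part of mating type in the values that follow was not tested. In these bulk samples fewer cells that express a gene and less RNA per cell cannot be told apart.

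Together the 66 genes took 0.138% and 0.142% of the counts in the WT libraries, 0.0624% and 0.0561% in the libraries labelled *Δsaf5* and 0.125% and 0.126% in *Δcwf12*. SPBPB7E8.01 alone held between 14.4% and 37.8% of these counts, depending on the library. Without the inside pair the shares were 0.0902% and 0.103% in WT, 0.0499% and 0.0441% in the libraries labelled *Δsaf5* and 0.0758% and 0.0768% in *Δcwf12*, so that the libraries labelled *Δsaf5* remained lowest.

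The outermost genes had almost no reads. Of the 66 genes, 35 had too few counts to be tested, 21 of 41 at the left end and 14 of 23 at the right end, and 12 had 0 counts in all 6 libraries. Among those not tested, 26 never exceeded 3 counts in any library, and the highest count was 16, for the pseudogene SPBC1348.11. At the left end the 12 outermost genes were all among the untested, and at the right end all of the first 10 except *tlh2*, the outermost. None of the 10 genes annotated to the DUF999, 5Tm or transmembrane helix families of *S. pombe* could be tested, and their highest count was 10.

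Repeated sequence coincided with these low counts. A gene was scored by the share of its stretches of 150 nt, the length of 1 read of the sequenced pairs, that occur elsewhere in the genome. More than 50% of the stretches were repeated in 32 of the 66 genes (48.5%) and in 140 of 6585 genes of the whole table. By end the share was 17 of 41 on the left (41.5%) and 15 of 23 on the right (65.2%). It was 28 of 35 among the genes not tested (80.0%), 11 of 12 among those at 0 counts (91.7%) and 4 of 31 among those tested (12.9%). How the counting treated reads that map to several places is not given in the sources used here, so a count of 0 on a repeated gene does not show that the gene was silent.

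**Figure D1:**
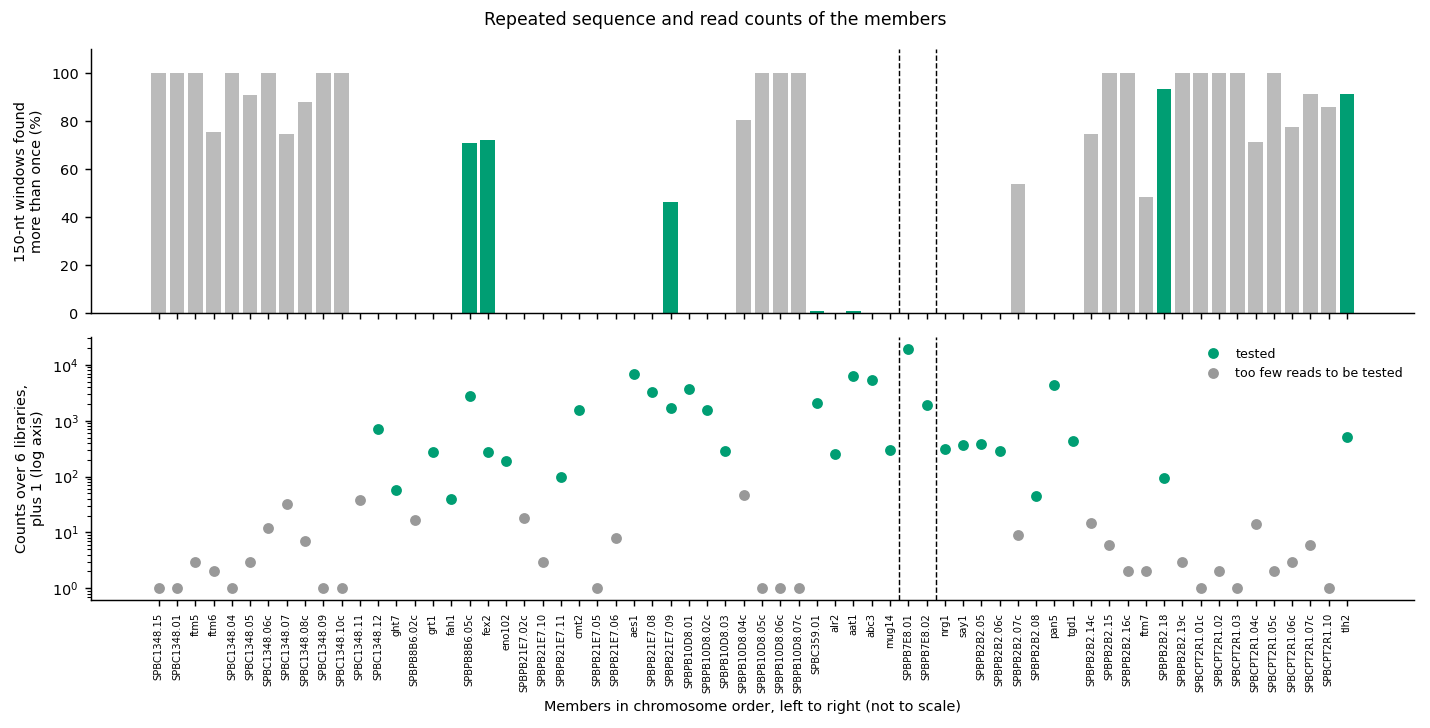
The upper panel plots, for the 66 genes in chromosome order, the percentage of 150-nt stretches that occur more than once in the genome; the lower panel plots the counts summed over the 6 libraries plus 1, on a log axis, in green for genes that were tested and in grey for those with too few reads. Dashed lines enclose the inside pair. The outermost genes of both ends combine high bars with few counts, and *tlh2*, SPBPB2B2.18, SPBPB8B6.05c and *fex2* are the 4 tested genes above 50%.

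The clearest case was a row of 4 transporter genes at the left end, SPBPB10D8.04c, SPBPB10D8.05c, SPBPB10D8.06c and SPBPB10D8.07c, genes 33 to 36 from the end. Their coding sequences are 1140 bases each and 100% identical to each other. SPBPB10D8.04c held 6 and 7 counts in WT, 8 and 9 in the libraries labelled *Δsaf5* and 4 and 11 in *Δcwf12*, and the other 3 held 0 in every library. Their first 90 bases, shown because no read inside them could be assigned to a single copy, are the same in all 4 (minus strand; RefSeq, ASM294v3, chrII:92774-92863, chrII:95533-95622, chrII:98292-98381 and chrII:101051-101140):
SPBPB10D8.04c to SPBPB10D8.07c: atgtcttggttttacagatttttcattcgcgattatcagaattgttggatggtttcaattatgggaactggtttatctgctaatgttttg

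The 31 genes that could be tested comprised 20 at the left end, 9 at the right end and the inside pair. A gene entered the test when its level passed about 1.03 CPM in enough libraries; 21 did so in both libraries of all 3 strains, 5 in both libraries of 2 strains and 5 of a single strain only. The last 5 were *ght7*, SPBPB2B2.08 and SPBPB2B2.18 through the libraries labelled *Δsaf5*, and *fah1* and *grt1* through WT. Counts over the tested genes are therefore descriptions and not evidence that the genes change as a set.

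A gene was called when its adjusted p was under 0.05 (edgeR's quasi-likelihood test, Benjamini-Hochberg over 6018 genes) and its log2 fold change reached 1 in either direction. Against WT, 4 of the 31 genes rose and 15 fell in the libraries labelled *Δsaf5*, where over all genes tested 8.69% were called, 6.20% higher and 2.49% lower. All genes tested include noncoding RNAs, whereas the 31 are coding genes or pseudogenes. Of the 373 genes called higher in this comparison 155 were matched to coding genes or pseudogenes, and of the 150 called lower 99 were. The median log2 fold change was -0.74 for the 31 and 0.02 for all genes. Without WT replicate 2 the split was 7 higher and 13 lower. In *Δcwf12*, 2 genes exceeded WT and 12 were lower, where over all genes 9.95% were called, 7.31% higher and 2.64% lower, with medians of -0.76 and 0.00. These comparisons share the WT libraries, so a low or high value in a WT library enters both. Between the deletions, 7 genes were higher in the libraries labelled *Δsaf5* and 10 were lower, where 8.57% of all genes were called, 3.95% higher and 4.62% lower, with medians of 0.10 and 0.01.

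The ends differed in their counts, and in how many genes could be tested, 20 on the left and 9 on the right. At the left end the libraries labelled *Δsaf5* had 2 genes higher and 12 lower than WT, and *Δcwf12* had 1 higher and 8 lower. At the right end the splits were 2 higher with 2 lower for the former and 1 higher with 4 lower for the latter. The lower genes of *Δcwf12* were thus a similar share of those tested at each end. For the libraries labelled *Δsaf5*, 6.20% of all genes tested were called higher and 2.49% lower, and for *Δcwf12* 7.31% and 2.64%. On the right the genes that rose in the libraries labelled *Δsaf5* lay 1 and 11 genes from the end, and those that fell lay 20 and 24 genes from it. No test of the difference between the ends was run.

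**Figure D2:**
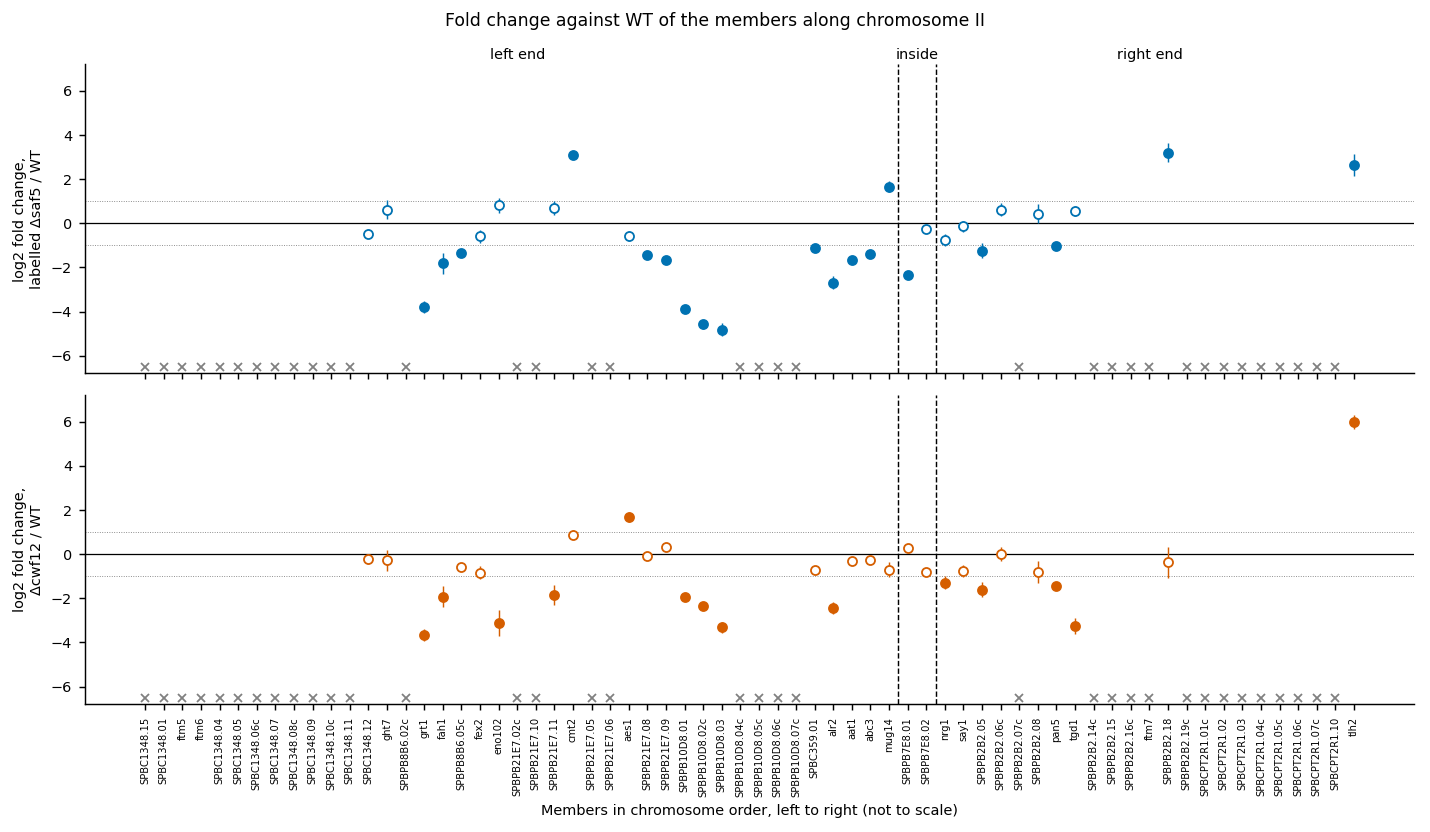
Log2 fold change against WT of the 66 genes in chromosome order, for the libraries labelled *Δsaf5* (upper panel, blue) and *Δcwf12* (lower panel, orange), with standard errors; filled points were called, open points were tested and not called, and grey crosses at the bottom are genes with too few reads. Dotted lines mark a log2 fold change of 1 in either direction and dashed lines enclose the inside pair. Most filled points at the left end lie under 0 in both panels, with SPBPB10D8.03 at -4.82 in the upper panel, and *tlh2* at the far right stands at 6.01 in the lower.

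By annotated role, grouped after the values were known, 16 of the 66 genes encode transporters, permeases or channels or are pseudogenes of one. Among them 8 could be tested; 5 were lower in the libraries labelled *Δsaf5*, 3 were lower in *Δcwf12* and none was higher. A second grouping takes the 10 genes annotated to amides, amino acids or urea (asparaginases, an acetamidase, an alanine racemase, a glutamine amidotransferase, amino acid permeases, a cysteine transporter and a urea transporter). Of its 9 tested genes, 8 were lower in the libraries labelled *Δsaf5*, against 5 in *Δcwf12*, and none was higher in either. Both groupings are drawn from genes that were mostly lower: of the 31 tested, 15 fell in the former comparison and 12 in the latter. Over all genes tested the shares called lower were 2.49% and 2.64%. The transporter and amide groups overlap, and their counts add no independent evidence.

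From the left end inward, the first gene with a called difference was *grt1*, gene 16, which encodes a transcription factor. It held 124 and 113 counts in WT, 9 and 9 in the libraries labelled *Δsaf5* and 13 and 8 in *Δcwf12*, so that every deletion library lay under both WT libraries. It fell 13.7-fold (log2 fold change -3.78, standard error 0.27, edgeR quasi-likelihood test, adjusted p = 4.41e-07) and 12.7-fold (-3.67, 0.26, 2.67e-07). Between the deletions the value was -0.11 (standard error 0.43). *fah1*, which encodes an acetamidase, overlaps *grt1* on the other strand and held 13 and 11 counts in WT, 3 and 4 in the libraries labelled *Δsaf5* and 3 and 4 in *Δcwf12*. Its log2 fold changes of -1.82 and -1.92 (adjusted p = 0.00716 and 0.00482 with edgeR) were not called by DESeq2, and they were lost without replicate 1 of the deletion concerned. The strand setting of the counting is not given in the sources used here, so reads of *fah1* and *grt1* in their overlap cannot be told apart.

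SPBPB8B6.05c, one of the L-asparaginases, which release ammonia from asparagine, had 646 and 618 counts in WT, 270 and 254 in the libraries labelled *Δsaf5* and 535 and 437 in *Δcwf12*. It fell in the libraries labelled *Δsaf5* (log2 fold change -1.35, standard error 0.09, adjusted p = 2.32e-07 with edgeR) and stayed under the fold threshold in *Δcwf12* (-0.56, 0.08). Its sequence is 70.8% repeated, and 70.9% of the stretches examined also occur in SPAC977.12 on chromosome I, which held 936 and 957 counts in WT, 495 and 484 in the libraries labelled *Δsaf5* and 916 and 758 in *Δcwf12*. The second L-asparaginase, SPBPB21E7.09, gene 29, held 262 and 337, 100 and 102, and 473 and 389 counts in the same order of strains. It fell in the libraries labelled *Δsaf5* (-1.64, standard error 0.14) and was 0.34 (standard error 0.12) higher on the log2 scale in *Δcwf12*, under the threshold, with the *Δcwf12* libraries above both WT libraries. The direct difference between the deletions was -1.98 (standard error 0.14, adjusted p = 2.47e-07 with edgeR). The deposited length of this gene is 1.92 times its span in ASM294v3.

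In the cosmid SPBPB21E7, 6 of 10 genes could be tested, and their differences ran in both directions. *eno102*, gene 20, an enolase of glycolysis, had 17 and 46 counts in WT, 61 and 57 in the libraries labelled *Δsaf5* and 6 and 2 in *Δcwf12*. In *Δcwf12* it fell 8.70-fold (log2 fold change -3.12, standard error 0.59, adjusted p = 0.000803 with edgeR), with values of -2.26 without WT replicate 2 and -3.96 without *Δcwf12* replicate 1. The value in the libraries labelled *Δsaf5* was 0.83 (standard error 0.34, adjusted p = 0.0589) and passed only when WT replicate 2 was left out (1.70). The noncoding RNA SPNCRNA.1302 lies over it on the other strand and held 72 and 113, 146 and 108, and 248 and 177 counts, a rise in *Δcwf12* of 1.01 (standard error 0.20). SPBPB21E7.11, an uncharacterized gene specific to *S. pombe*, had 14 and 18 counts in WT, 31 and 24 in the libraries labelled *Δsaf5* and 7 and 3 in *Δcwf12*. It fell in *Δcwf12* (-1.84, standard error 0.46, adjusted p = 0.00516), a call lost without *Δcwf12* replicate 2, and the value was -2.44 without *Δcwf12* replicate 1.

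*cmt2*, gene 24, a homolog of human catechol O-methyltransferase, rose 8.48-fold in the libraries labelled *Δsaf5*. Its counts were 49 and 78 in WT, 626 and 513 in the libraries labelled *Δsaf5* and 136 and 130 in *Δcwf12*, with the strains in 3 separate ranges. The log2 fold change was 3.08 (standard error 0.17, adjusted p = 6.01e-08 with edgeR) against WT in the libraries labelled *Δsaf5* and 0.88 (standard error 0.20) in *Δcwf12*, the latter under the threshold except when WT replicate 2 was left out (1.23). The direct difference was 2.20 (standard error 0.15).

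*aes1*, gene 27, annotated as a phenazine biosynthesis family protein, rose in *Δcwf12*. It held 406 and 851 counts in WT, 484 and 412 in the libraries labelled *Δsaf5* and 2542 and 2060 in *Δcwf12*, a 3.22-fold difference (log2 fold change 1.69, standard error 0.21, adjusted p = 2.86e-05 with edgeR) that depended on the WT libraries, at 2.29 without WT replicate 2 and 1.26 without WT replicate 1. The libraries labelled *Δsaf5* lay near the level of WT replicate 1 and were not called against WT (-0.56, standard error 0.23, and 0.06 without WT replicate 2). The pseudogene next to it, SPBPB21E7.08, held 505 and 802, 265 and 249, and 784 and 602 counts, lower in the libraries labelled *Δsaf5* (-1.42, standard error 0.17), with the *Δcwf12* libraries inside the WT range (-0.10, standard error 0.15).

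The largest decreases in the libraries labelled *Δsaf5* were in 3 adjacent genes of SPBPB10D8, genes 30 to 32 from the left end, which also fell in *Δcwf12*. SPBPB10D8.01, a cysteine transporter, dropped from 1222 and 1453 counts in WT to 103 and 89 in the libraries labelled *Δsaf5* and 413 and 377 in *Δcwf12*. SPBPB10D8.02c, an arylsulfatase, an enzyme type that frees sulfate, held 508 and 696 counts in WT, 23 and 30 in the libraries labelled *Δsaf5* and 157 and 116 in *Δcwf12*. SPBPB10D8.03, a pseudogene of a transporter, held 120 and 128, 5 and 4, and 15 and 13. In all 3 genes the order was WT, then *Δcwf12*, then the libraries labelled *Δsaf5*, with no overlap between strains.

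In fold terms SPBPB10D8.01 fell 14.7-fold in the libraries labelled *Δsaf5* (log2 fold change -3.88, standard error 0.11, edgeR quasi-likelihood test, adjusted p = 5.87e-10) and 3.84-fold in *Δcwf12* (-1.94, 0.09, 1.01e-08). The arylsulfatase fell 23.8-fold (-4.58, standard error 0.21) and 5.01-fold (-2.33, 0.16), and the pseudogene SPBPB10D8.03 fell 28.3-fold (-4.82, 0.29) and 9.98-fold (-3.32, 0.23). The direct differences between the deletions were -1.93 (standard error 0.13), -2.25 (0.26) and -1.51 (0.46), and the call on the last was lost when either library of either deletion was left out. The arylsulfatase overlaps the cysteine transporter and the noncoding RNA SPNCRNA.1307, both on the other strand.

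The cosmid SPBC359, genes 37 to 42, is the inner part of the left end and holds 2 amino acid permeases among its 5 genes. SPBC359.01 had 453 and 508 counts in WT, 241 and 232 in the libraries labelled *Δsaf5* and 353 and 305 in *Δcwf12*, with log2 fold changes of -1.10 (standard error 0.10, called) and -0.73 (0.09, not called). *aat1* had 1328 and 1419 counts in WT, 479 and 432 in the libraries labelled *Δsaf5* and 1348 and 1190 in *Δcwf12*, and fell in the former (-1.67, standard error 0.07, adjusted p = 5.78e-09 with edgeR) but was at -0.30 (0.07) in the latter. The ABC transporter *abc3* followed the same order, with 1247 and 1054, 488 and 430, and 1178 and 986 counts and values of -1.40 (standard error 0.09, called) and -0.27 (0.08, not called). In both *aat1* and *abc3* the direct difference between the deletions passed as well, at -1.37 and -1.13.

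*alr2*, an alanine racemase, which interconverts the mirror forms of alanine, fell in both deletions. It held 78 and 106 counts in WT, 18 and 12 in the libraries labelled *Δsaf5* and 21 and 17 in *Δcwf12*, that is -2.68 (standard error 0.28, adjusted p = 1.08e-05 with edgeR) and -2.45 (0.26, 9.84e-06), with a direct difference of -0.23 (0.38). The innermost gene of this end, *mug14*, an adducin-type protein linked to the actin cytoskeleton, was the exception. Its counts were 24 and 36 in WT, 93 and 108 in the libraries labelled *Δsaf5* and 27 and 15 in *Δcwf12*. It rose 3.17-fold in the libraries labelled *Δsaf5* (1.66, standard error 0.25, adjusted p = 0.000194) and was at -0.70 (0.33) in *Δcwf12*. *pfl7*, set aside by the rule but lying between *aat1* and *abc3*, fell in both deletions (-2.72 and -2.54).

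**Figure D3:**
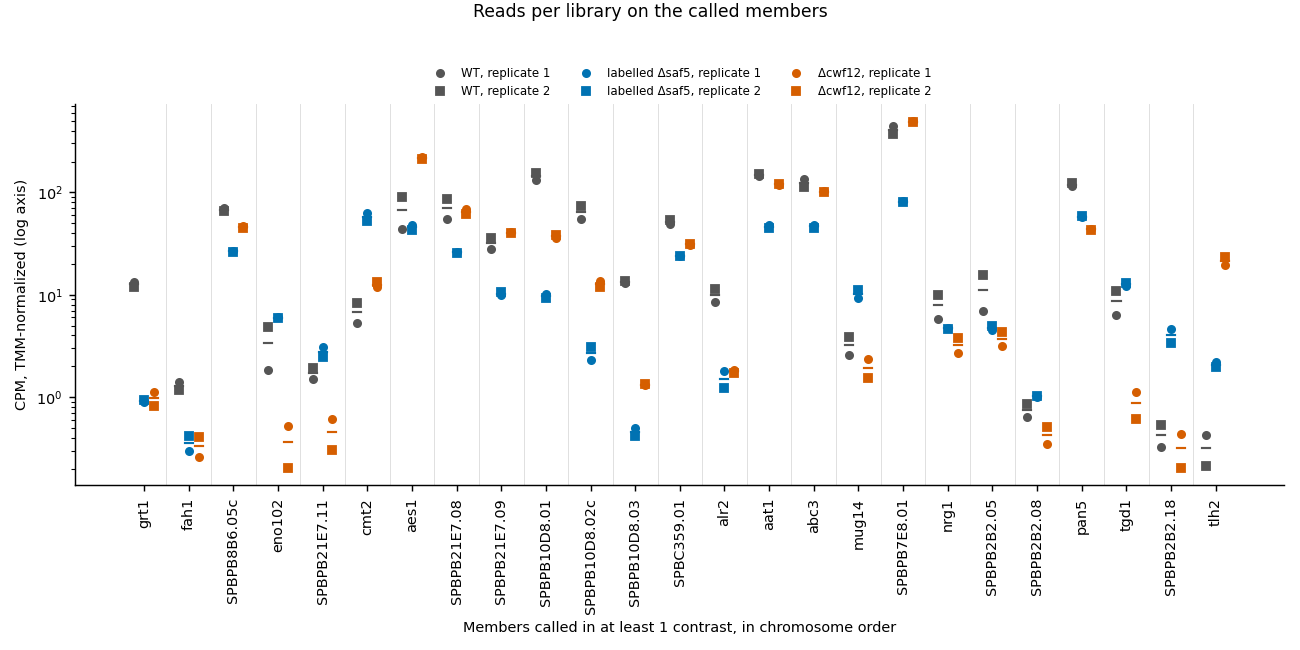
Level of each of the 25 genes called in at least 1 of the 3 comparisons, in chromosome order, as CPM after TMM scaling on a log axis; grey is WT, blue the libraries labelled *Δsaf5* and orange *Δcwf12*, circles are replicate 1 and squares replicate 2, and the short lines are the means of 2 libraries. The libraries labelled *Δsaf5* stand alone at the bottom for the asparaginases, *aat1*, *abc3* and SPBPB7E8.01, *Δcwf12* stands alone at the bottom for *eno102* and *tgd1* and at the top for *tlh2* and *aes1*.

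Of the inside pair, SPBPB7E8.01 had the highest level of all 66 genes per length in WT, 82.2 CPM per kb of deposited length, followed by *pan5* at 77.4 and *aat1* at 59.6. It is uncharacterized, and its deposited length is 1.94 times its ASM294v3 span. Its counts were 4127 and 3488 in WT, 819 and 777 in the libraries labelled *Δsaf5* and 5713 and 4730 in *Δcwf12*. The fall in the libraries labelled *Δsaf5* was 5.04-fold (log2 fold change -2.33, standard error 0.10, adjusted p = 4.55e-09 with edgeR), while *Δcwf12* was at 0.27 (0.09). Its neighbour SPBPB7E8.02, of the PSP1 family, had 354 and 395, 325 and 337, and 265 and 219 counts and was not called in any comparison, with -0.25 (standard error 0.10) in the libraries labelled *Δsaf5* compared with -0.81 (0.10) in *Δcwf12*.

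The promoters of the tested genes were searched for the letters TATAAA on the gene's own strand, starting 40 to 20 bases before the annotated start. The window was chosen after the promoters had been seen, so the counts are a description without a test. In that window 236 of 5144 coding genes and pseudogenes of the genome had the motif (4.59%), as did 7 of the 66 genes (10.6%) and 6 of the 31 tested (19.4%). Of the 99 coding genes and pseudogenes of the genome called lower in the libraries labelled *Δsaf5*, 19.2% had it. Of the 155 called higher 16.8% had it, both above the share of all coding genes and pseudogenes. The 60 bases before the start of the 6 tested genes are shown so that the motif can be placed against the fold changes, with TATAAA in capitals (RefSeq, ASM294v3; in the order listed chrII:57121-57180 on the minus strand, chrII:76236-76295, chrII:80958-81017, chrII:113366-113425 on the minus strand, chrII:3494162-3494221 and chrII:4475917-4475976):
fex2: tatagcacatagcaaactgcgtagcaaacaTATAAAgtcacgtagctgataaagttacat
SPBPB21E7.09: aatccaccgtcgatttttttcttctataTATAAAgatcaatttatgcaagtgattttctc
SPBPB10D8.01: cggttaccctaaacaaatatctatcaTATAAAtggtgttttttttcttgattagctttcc
aat1: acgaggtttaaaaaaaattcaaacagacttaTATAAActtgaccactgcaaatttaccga
SPBPB7E8.01: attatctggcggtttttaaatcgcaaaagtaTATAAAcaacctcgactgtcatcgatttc
SPBPB2B2.08: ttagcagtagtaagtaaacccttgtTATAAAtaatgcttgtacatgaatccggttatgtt

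SPBPB21E7.09, SPBPB10D8.01, *aat1* and SPBPB7E8.01, the genes in the middle of this list, were lower in the libraries labelled *Δsaf5* than in WT and than in *Δcwf12*. They are 4 of the 15 genes that fell against WT and 4 of the 10 that were lower in the direct comparison. Over the coding genes and pseudogenes of the genome, 12.6% of those lower in the direct comparison had the motif and 13.7% of those higher. In *Δcwf12* against WT it stood before 1 of the 12 described genes that were lower and 5 of the 17 not called. A link of the motif to the fold changes was not tested. *fex2*, a fluoride export channel, was not called in any comparison (53 and 65 counts in WT, 55 and 28 in those labelled *Δsaf5*, 45 and 30 in *Δcwf12*), and 71.5% of its stretches also occur in *fex1*. In the larger window of 300 bases around the start, on either strand, TATAAA occurred in 38 of the 66 promoters (57.6%) and in 48.1% of all promoters.

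At the right end, *nrg1*, SPBPB2B2.05 and *pan5* were lower in one or both deletions. *nrg1*, an amino acid permease 26 genes from the end, held 54 and 93 counts in WT, 48 and 45 in the libraries labelled *Δsaf5* and 31 and 37 in *Δcwf12*. It fell in *Δcwf12* (log2 fold change -1.29, standard error 0.29, adjusted p = 0.00246 with edgeR), but without WT replicate 2 the value was -0.87 and the call was lost. SPBPB2B2.05, of the class I glutamine amidotransferases, had 64 and 146, 46 and 48, and 36 and 42 counts. Its calls in both deletions (-1.23, standard error 0.33, and -1.60, standard error 0.34) also rested on WT replicate 2, without which they were -0.53 and -0.92 and did not pass. The call in the libraries labelled *Δsaf5* was lost without either of these libraries as well.

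*pan5*, a dehydropantoate reductase of the pathway to pantothenate and coenzyme A, was the gene of this end with the most reads. It had 1063 and 1159 counts in WT, 576 and 565 in the libraries labelled *Δsaf5* and 508 and 415 in *Δcwf12*, all deletion libraries lying under WT. It fell 2.05-fold (log2 fold change -1.04, standard error 0.07, adjusted p = 3.50e-07 with edgeR) and 2.74-fold (-1.45, 0.07, 1.69e-08). The first value was just past the fold threshold, and without WT replicate 2 it was -0.98. SPBPB2B2.08, conserved in fungi, had no more than 10 counts in any library (6 and 8, 10 and 10, 4 and 5), and its call between the deletions (1.23, standard error 0.47, adjusted p = 0.0452) was lost with DESeq2, without the filter on low counts, with the replicate number as a block and without any library except WT replicate 2.

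*tgd1*, a nucleotide-sugar dehydratase gene, overlaps *gal10*, which lies on the other strand. Its counts were 59 and 102 in WT, 123 and 126 in the libraries labelled *Δsaf5* and 13 and 6 in *Δcwf12*, where it fell 9.52-fold (log2 fold change -3.25, standard error 0.37, adjusted p = 1.59e-05 with edgeR). The value in the libraries labelled *Δsaf5* was 0.55 (standard error 0.23), and the direct difference was 3.80 (0.34). The *gal* genes around it, set aside by the rule, fell in *Δcwf12* too, with log2 fold changes of -4.10 for *gal7*, -4.39 for *gal10* and -6.25 for *gal1*. Without the strand setting, reads of *tgd1* and *gal10* in their overlap cannot be told apart.

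SPBPB2B2.18, an uncharacterized gene with 3 introns, 11 genes from the end, had 3 and 5 counts in WT, 47 and 33 in the libraries labelled *Δsaf5* and 5 and 2 in *Δcwf12*. It rose 9.23-fold in the libraries labelled *Δsaf5* (log2 fold change 3.21, standard error 0.42, adjusted p = 6.47e-05 with edgeR) and was at -0.37 (0.71) in *Δcwf12*. The fold rests on the few WT counts, so its size is poorly fixed. The gene overlaps SPBPB2B2.19c, which lies on the other strand and had no count above 1. The sequence of SPBPB2B2.18 is 93.3% repeated, and 42.2% of the stretches examined also occur in SPAC977.18 at an end of chromosome I, which held 10 and 13, 202 and 194, and 57 and 41 counts. Which of these genes the reads came from cannot be told from the counts.

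*tlh2*, the outermost gene of the right end, encodes the RecQ-type helicase of the subtelomere and showed the largest rise. It had 4 and 2 counts in WT, 22 and 19 in the libraries labelled *Δsaf5* and 225 and 228 in *Δcwf12*, with the strains in 3 separate ranges. The log2 fold change was 2.65 (standard error 0.51, adjusted p = 0.00108 with edgeR) in the libraries labelled *Δsaf5*, against 6.01 in *Δcwf12*, with a direct difference of -3.36 (standard error 0.22). The fold in *Δcwf12* rests on a total of 6 WT counts, so its size is poorly fixed. *tlh2* is 91.4% repeated, and its stretches also occur in *tlh1* at an end of chromosome I, on which 0 and 0, 0 and 1, and 6 and 5 counts were recorded. Several noncoding RNAs are annotated over *tlh2* on the other strand. Without the counting settings, the copy and the strand its reads came from cannot be told. The 9 genes inward of *tlh2*, all but SPBPB2B2.19c in the same cosmid, had no count above 7.

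**Figure D4:**
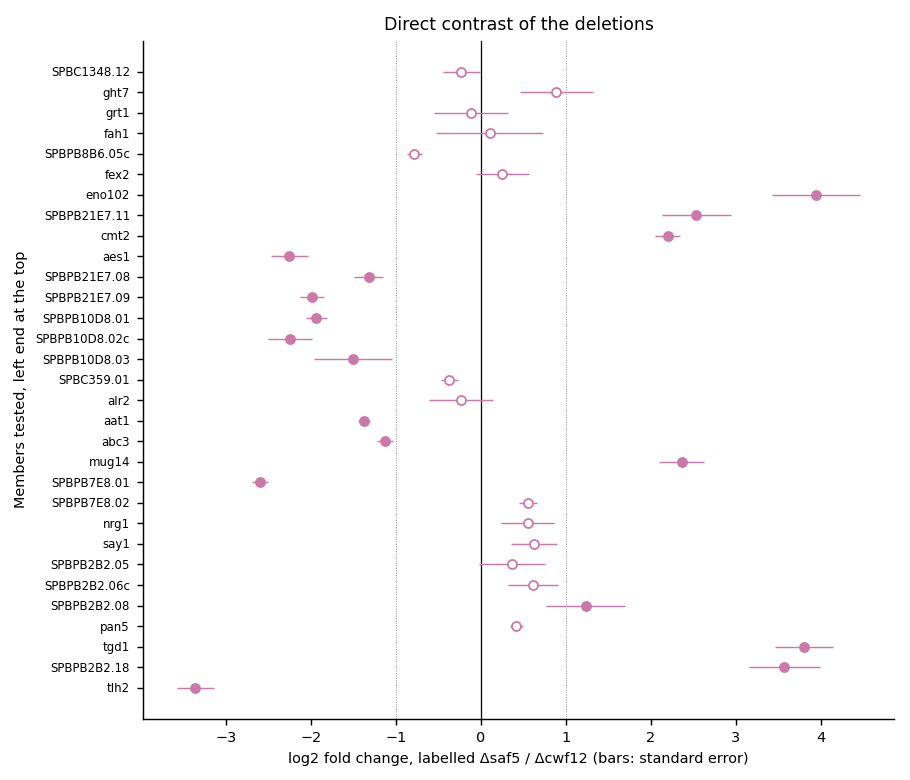
Log2 fold change of the libraries labelled *Δsaf5* over *Δcwf12* for the 31 tested genes, left end at the top, with standard errors as bars; filled points were called and dotted lines mark a log2 fold change of 1 in either direction. The 7 filled points on the right run from SPBPB2B2.08 at 1.23 to *eno102* at 3.95, and the 10 on the left from *abc3* at -1.13 to *tlh2* at -3.36.

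In the direct comparison the genes that were higher in the libraries labelled *Δsaf5* than in *Δcwf12* were *eno102*, SPBPB21E7.11, *cmt2*, *mug14*, SPBPB2B2.08, *tgd1* and SPBPB2B2.18. For *cmt2*, *mug14* and SPBPB2B2.18 the libraries labelled *Δsaf5* had also risen against WT, and for *eno102*, SPBPB21E7.11 and *tgd1* it was *Δcwf12* that had fallen against WT. The largest of these differences were 3.95 (standard error 0.52) for *eno102*, 3.80 for *tgd1* and 3.57 (0.42) for SPBPB2B2.18. Without *Δcwf12* replicate 1 they were 4.80 for *eno102*, 4.24 for SPBPB2B2.18 and 3.14 for SPBPB21E7.11, which was at 2.54 with it.

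The 6 tested genes without a call in any comparison were SPBC1348.12, a transcription factor, *ght7*, a hexose transporter, *fex2*, SPBPB7E8.02, *say1*, a sterol deacetylase, and SPBPB2B2.06c, a nucleotidase. Their log2 fold changes lay between -0.59 and 0.62 in the libraries labelled *Δsaf5* and between -0.84 and 0.00 in *Δcwf12*. Among the genes not tested, SPBPB21E7.02c, of the phosphoglycerate mutase family, had 1 and 1 counts in WT, 6 and 7 in the libraries labelled *Δsaf5* and 1 and 1 in *Δcwf12*, at least 2.06-fold higher in the libraries labelled *Δsaf5* than a floor of 3 counts per WT library. The urea transporter SPBPB8B6.02c had 6 and 4, 5 and 1, and 0 and 0 counts, at least 1.89-fold lower in *Δcwf12* than in WT by the same floor.

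The genes next to the inner border were measured as well. On the left *pho841* stayed under the threshold in both deletions (-0.70 and -0.67). On the right *fub2* held 0 and 6 counts in WT, 79 and 105 in the libraries labelled *Δsaf5* and 34 and 20 in *Δcwf12* and rose in both (log2 fold change 4.81, standard error 0.51, and 2.93, standard error 0.66, called with edgeR). Beside the inside pair, *zfs1* was at -0.51 and -0.63 and SPBC1105.01 at -0.16 and -0.22.

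For comparison, 64 of 97 genes at the ends of chromosome I could be tested. Against WT the libraries labelled *Δsaf5* had 11 of them higher and 9 lower and *Δcwf12* had 12 higher and 13 lower, with medians of -0.08 and 0.04. Calls in either direction made up 31.25% of the 64 genes in the former comparison and 39.06% in the latter. The shares were 61.29% and 45.16% for the 31 tested genes described above, and 8.69% and 9.95% for all genes tested. In the rest of chromosome II, with 1782 tested genes, 67 were called in the former comparison (3.76%) and 80 in the latter (4.49%). No test of these differences was run.

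The genes whose products package or protect chromosome ends showed small differences. In a list of 30 such genes, among them *clr4*, *swi6*, *taz1*, *pot1* and *dcr1*, none was called in any of the 3 comparisons, by edgeR or by DESeq2. They did not reach the fold change of a call, while 13 had an adjusted p under 0.05 in the libraries labelled *Δsaf5*, 19 in *Δcwf12* and 19 between the deletions (edgeR), and 16, 20 and 22 an unadjusted one. The share of all genes that pass by p alone was not counted, so these numbers do not set the list apart from other genes. Their log2 fold changes lay between -0.78, for the silencing factor *clr2*, and 0.43 in the libraries labelled *Δsaf5*, and between -0.65, for *epe1*, a factor that opposes heterochromatin, and 0.58, for the telomere protein gene *pot1*, in *Δcwf12*.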

How the data were processed

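RNA-seq counts of 6 libraries (2 each of WT, *saf5* and *cwf12* deletions) were analysed. The authors deposited raw counts per gene, whole numbers without normalization; per the methods and the submitters' processing notes, Trimmomatic, STAR, the ASM294v2 genome and HTSeq were used on paired reads of 150 nt, and replicates were not pooled. Feature type, strand setting and the treatment of reads with several positions are not given in the sources used here. The deposited table also gives a length per gene (in the file headers as an effective size), used only for levels per kb. The number of columns with per-sample values that were not used is 0.

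From the counts, filterByExpr, TMM factors and quasi-likelihood tests of edgeR 4.0.16 (R 4.3.3) were run in a fit of all 6 libraries over 6018 genes, with Benjamini-Hochberg adjustment; standard errors were taken as the log2 fold change over the root of the F statistic. The procedure was tested on simulated data. With 2 replicates per strain p-values rest on a spread shared by the 3 strains. The alternatives comprised DESeq2 1.42.0, a fit with RLE factors, fits without the low-count filter or with a minimum of 10 counts per library, a fit of only the strains compared, calls with no minimum fold change, a replicate block, and fits that left out 1 library each. For a single gene, the smallest p of an exact permutation test of 2 against 2 libraries is 0.333, so none was run.

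Names, order, introns and sequences come from RefSeq ASM294v3, which matched 6846 of 7268 identifiers; its coordinates are printed only for sequences. Repeats were scored as exact matches of 150 nt. All genes called in at least 1 comparison are described singly, up to 30, and the others by range. The members and lists, heterochromatin, chromosome I and mating-type genes included (*mat1-Pc* was not matched), were chosen with earlier results of these data known. Splicing was not analysed here.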

Additional observations from a re-analysis of the deposited data

How the results depend on the processing

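The number of genes called, 19 in the libraries labelled *Δsaf5*, 14 in *Δcwf12* and 17 between the deletions, was 18, 15 and 17 with DESeq2 and 20, 16 and 19 without the filter on low counts. With at least 10 counts in every library, which left 21 genes, it was 14, 7 and 10. With no minimum fold change it was 20, 24 and 21. The shares of all genes given above require the fold change and cannot be set against these last counts. Leaving out each library in turn gave 18 to 20 in the libraries labelled *Δsaf5*, 13 to 15 in *Δcwf12* and 15 to 17 between the deletions. The replicate numbers did not pair the libraries (same-numbered deviations correlated at 0.0523, 0.00339 and -0.0147 over 6018 genes). With the replicate number as a block the counts were 19, 14 and 16, the call lost being SPBPB2B2.08 (1.23).

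Values that changed sign did so only when a library was left out, and none had been called: between the deletions *grt1* (-0.29 to 0.17), *fah1* (-0.19 to 0.44) and *alr2* (-0.52 to 0.00), in the libraries labelled *Δsaf5* *aes1* (-1.0 to 0.06), and in *Δcwf12* SPBPB21E7.08 (-0.39 to 0.25) and SPBPB2B2.18 (-1.03 to 0.02). Over the single genes and comparisons, 18 values lost and 3 gained a call when a library was left out, and 5 lost it under the other alternatives; the cause was not tested. Because of few reads, 35 of 66 genes could not be tested.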

Other observations

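Noncoding RNAs annotated within the stretches that these genes span were also counted. Many of those tested at the left end lie over one of the genes, on the other strand. At the left end 12 of 18 could be tested, of which 5 were lower and none higher in the libraries labelled *Δsaf5*, and 7 were lower and 1 higher in *Δcwf12*. Over all genes tested the shares called were 2.49% lower and 6.20% higher in the libraries labelled *Δsaf5*, and 2.64% lower and 7.31% higher in *Δcwf12*. SPNCRNA.1307, on the strand opposite the arylsulfatase gene SPBPB10D8.02c, held 220 and 264 counts in WT, 10 and 19 in the libraries labelled *Δsaf5* and 164 and 164 in *Δcwf12*. It fell in the libraries labelled *Δsaf5* (log2 fold change -4.13, standard error 0.25, edgeR quasi-likelihood test, adjusted p = 1.38e-07) and was at -0.74 (0.16) in *Δcwf12*. SPNCRNA.1310 fell in both, from 36 and 33 counts in WT to 7 and 9 in the libraries labelled *Δsaf5* and 5 and 7 in *Δcwf12*, and so did SPNCRNA.293, from 75 and 87 to 15 and 28 and to 31 and 24. SPNCRNA.1313, on the strand opposite *abc3*, fell in *Δcwf12*, from 17 and 25 counts to 5 and 2, and held 23 and 14 in the libraries labelled *Δsaf5*.

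At the right end 2 of 3 could be tested. *nam3* held 137 and 162 counts in WT, 229 and 187 in the libraries labelled *Δsaf5* and 377 and 347 in *Δcwf12*, where it rose (log2 fold change 1.09, standard error 0.13, adjusted p = 2.23e-05 with edgeR). The other, of 1146 nt by its deposited length, held 55 and 49 counts in WT, 99 and 90 in the libraries labelled *Δsaf5* and 0 and 0 in *Δcwf12*. It was at least 19.6-fold lower in *Δcwf12* than in WT against a floor of 3 counts per library (adjusted p = 1.50e-06 with edgeR), and was not called in the libraries labelled *Δsaf5* (0.78, standard error 0.20). Because the strand setting of the counting is not given in the sources used here, reads of a noncoding RNA and of the coding gene on the other strand cannot be told apart.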
